A study of Homo sapiens with 62 samples.

Results

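The genes described here were 10 inflammatory genes with known NF-κB control, out of 29794 genes in the tables. They were chosen by name, with no threshold on a measured value, but with earlier results of these data known. They comprised the CXCR2 ligands CXCL1, CXCL2, CXCL3, CXCL5 and CXCL8, the CCR6 ligand CCL20, the interleukin-1 cytokines IL1A and IL1B, and the inhibitors NFKBIA and TNFAIP3. All 10 were present in the tables of both cell lines.

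The positions are those of GENCODE v44 on GRCh38. The CXCR2 ligands lie in one cluster on chromosome 4: CXCL8 (ENSG00000169429.12, chr4:73740519-73743716, plus strand), CXCL1 (ENSG00000163739.5, chr4:73869393-73871308, plus strand), CXCL5 (ENSG00000163735.7, chr4:73995642-73998677, minus strand), CXCL3 (ENSG00000163734.4, chr4:74036589-74038807, minus strand) and CXCL2 (ENSG00000081041.9, chr4:74097040-74099196, minus strand). Chromosome 2 carries CCL20 (ENSG00000115009.13, chr2:227805739-227817564, plus strand), IL1A (ENSG00000115008.6, chr2:112773925-112784493, minus strand) and IL1B (ENSG00000125538.12, chr2:112829751-112836816, minus strand). NFKBIA (ENSG00000100906.12) is at chr14:35401079-35404749 on the minus strand and TNFAIP3 (ENSG00000118503.18) at chr6:137867214-137883314 on the plus strand. The values that follow are counts of reads over the 3′UTR exons of each gene.

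RNA made within a labelling window was read by SLAM-seq across 62 libraries of 2 human pancreatic ductal adenocarcinoma cell lines, AsPC-1 (42 libraries) and T3M-4 (20 libraries). In this assay cells take up 4-thiouridine for a short time, here 2 h, and chemical alkylation then makes labelled bases read as T-to-C (T>C) conversions in 3′-end libraries. All groups of both lines carried the same degron: endogenous KLF5 was disrupted with Cas9 and replaced by a lentiviral FLAG-FKBP12(F36V)-KLF5 fusion. The cells were drug-selected, with no cloning step described. No group with native KLF5 was analysed here. At 4 h, both lines received the degrader dTAGv1, which removes the fusion protein, or dTAG-NEG, its inactive analogue (10 libraries each in AsPC-1, 4 each in T3M-4). Both lines also received CB6644, an inhibitor of the RUVBL1/2 ATPases, or the solvent DMSO for 4 h (5 each in AsPC-1, 4 each in T3M-4). NVP2, an inhibitor of the elongation kinase CDK9, was given for 4 h (4 libraries per line). AsPC-1 cells were also treated with CB6644 or DMSO for 12 h (4 each). Library names give the experiment and then the library, so 2.1 is the first library of experiment 2.

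NF-κB is a family of dimeric transcription factors that inhibitor proteins hold in the cytoplasm until receptors such as those for TNF or interleukin-1 activate the IKK kinases. The freed dimers bind κB sites near promoters and switch on chemokines, cytokines and their own inhibitors, among them NFKBIA (IκBα), which recaptures the dimers, and TNFAIP3 (A20), which dampens the signal upstream. The messages are short-lived, in part through AU-rich elements in their 3′UTRs, and in pancreatic cancer the CXCR2 ligands are known as attractants of neutrophils.

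The sequences at the base of this control are shown first. Since the members were chosen for known NF-κB control, κB sites in their promoters describe that choice and are no separate finding. In RefSeq promoters (250 bases before to 50 after the start, GRCh38.p14), the 10-base κB consensus lay in 7 of the 10 members on either strand, against 5.91% of 35116 promoters. The exact κB sequence GGAATTTCC, which overlaps the consensus where both occur, was found in 6 members and in 0.461% of promoters. Either was present in 8 members and in 6.12% of promoters; IL1A and IL1B had neither in this window. The windows below run 5′ to 3′ on the gene's strand, with the κB match in capitals. CXCL1, CXCL2 and CXCL3 are close paralogs whose reads could be assigned to one another, so their separate counts are uncertain to that extent.

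CXCL1 promoter, chr4:73869304-73869333, plus strand: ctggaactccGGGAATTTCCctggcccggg
CXCL2 promoter, chr4:74099254-74099283, minus strand: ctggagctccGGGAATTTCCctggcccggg
CXCL3 promoter, chr4:74038749-74038778, minus strand: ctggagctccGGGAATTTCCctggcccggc
CXCL5 promoter, chr4:73998749-73998778, minus strand: catgagttcaGGGAATTTCCccagcatccc
CXCL8 promoter, chr4:73740468-73740496, plus strand: tgcaaatcgtGGAATTTCCtctgacataa
CCL20 promoter, chr2:227813753-227813782, plus strand: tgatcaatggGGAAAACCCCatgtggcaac
NFKBIA promoter, chr14:35404811-35404840, minus strand: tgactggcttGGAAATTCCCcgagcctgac
TNFAIP3 promoter, chr6:137867182-137867211, plus strand: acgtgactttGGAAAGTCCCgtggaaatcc

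At the other end of the message, the 3′UTRs of the canonical GENCODE v44 transcripts (GRCh38) held the AU-rich pentamer ATTTA in all 10 members, against 67.8% of 19228 3′UTRs. The longer element TTATTTATT, which contains the pentamer, occurred in 6 members and in 8.50% of 3′UTRs. Pentamer density ran from 2.51 copies per kb in TNFAIP3 to 14.0 per kb in CXCL2, against a median of 1.67 over 3′UTRs of at least 100 bases. The densest 30-base stretch of 6 members is given with the pentamers in capitals, since these 3′UTRs are also the sequence that the libraries counted. Only T positions can convert, and each 3′-end read of 100 bases covers part of a 3′UTR. Over the whole 3′UTR, the T content of the 10 members was 30.2% to 37.8%, against a median of 29.5% over all 3′UTRs.

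CXCL1 3′UTR, chr4:73870673-73870702, plus strand: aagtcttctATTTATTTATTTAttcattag
CXCL2 3′UTR, chr4:74097586-74097615, minus strand: cttctATTTATTTATTTATTTATTTAtttg
CXCL8 3′UTR, chr4:73743111-73743140, plus strand: cctATTTAttATTTAtgtATTTATTTAagc
IL1A 3′UTR, chr2:112774424-112774453, minus strand: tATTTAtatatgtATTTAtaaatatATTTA
IL1B 3′UTR, chr2:112829995-112830024, minus strand: cgcttccctATTTATTTATTTAtttgtttg
NFKBIA 3′UTR, chr14:35401910-35401939, minus strand: aaaagaagaaaaaATTTAaagggtgtactt

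Libraries held 82676553 to 200298262 reads in AsPC-1 and 111132257 to 244524608 in T3M-4. Reads with T>C conversions made up 7.58% to 10.6% of these in AsPC-1 and 11.0% to 14.3% in T3M-4, but 1.35% to 1.91% and 1.80% to 2.80% after NVP2. In the 4 h DMSO libraries, both lines showed 5 of 5 epithelial markers above 1 CPM (counts scaled to library size), AsPC-1 also 5 of 5 classical and 1 of 5 basal-like markers, and T3M-4 3 of 5 classical and 5 of 5 basal-like markers; 2 of 8 markers of leukocytes, fibroblasts and endothelium passed 1 CPM in each line, with highest means of 7.57 and 7.01 CPM. KLF5 mRNA does not check the labels, because dTAGv1 acts on the protein. In bulk RNA, fewer expressing cells and less RNA per cell cannot be told apart. Libraries of 1 experiment share its cultures as far as the labels show, so p-values partly measure technical spread. Where groups are said not to overlap, the share of all genes that did the same was not counted.

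Libraries also stood apart within the treatment groups. The 38 AsPC-1 libraries without NVP2 fell into 3 sets (A, B and C, of 15, 15 and 8 libraries) when clustered on the 500 most variable genes, with the members and the pathway genes left out. Set C was experiment 2, and the other experiments were split between A and B, with treated and control libraries in each. CXCL1 moved with the sets, with a median of 4.11 T>C CPM (scaled to the library's own T>C reads) in set A, 0.499 in B and 2.18 in C. TNFAIP3 ran the other way, with 307, 764 and 436 T>C CPM. Not all members did so. The ranges of the sets overlapped widely for CCL20 (medians 3.25, 2.94 and 2.23) and NFKBIA (876, 801 and 584). In T3M-4, libraries of experiment 1 were higher than those of experiment 2 for CXCL1, CXCL8 and IL1B in every group. The 2 experiments of T3M-4 were also its 2 batches.

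**Figure D1:**
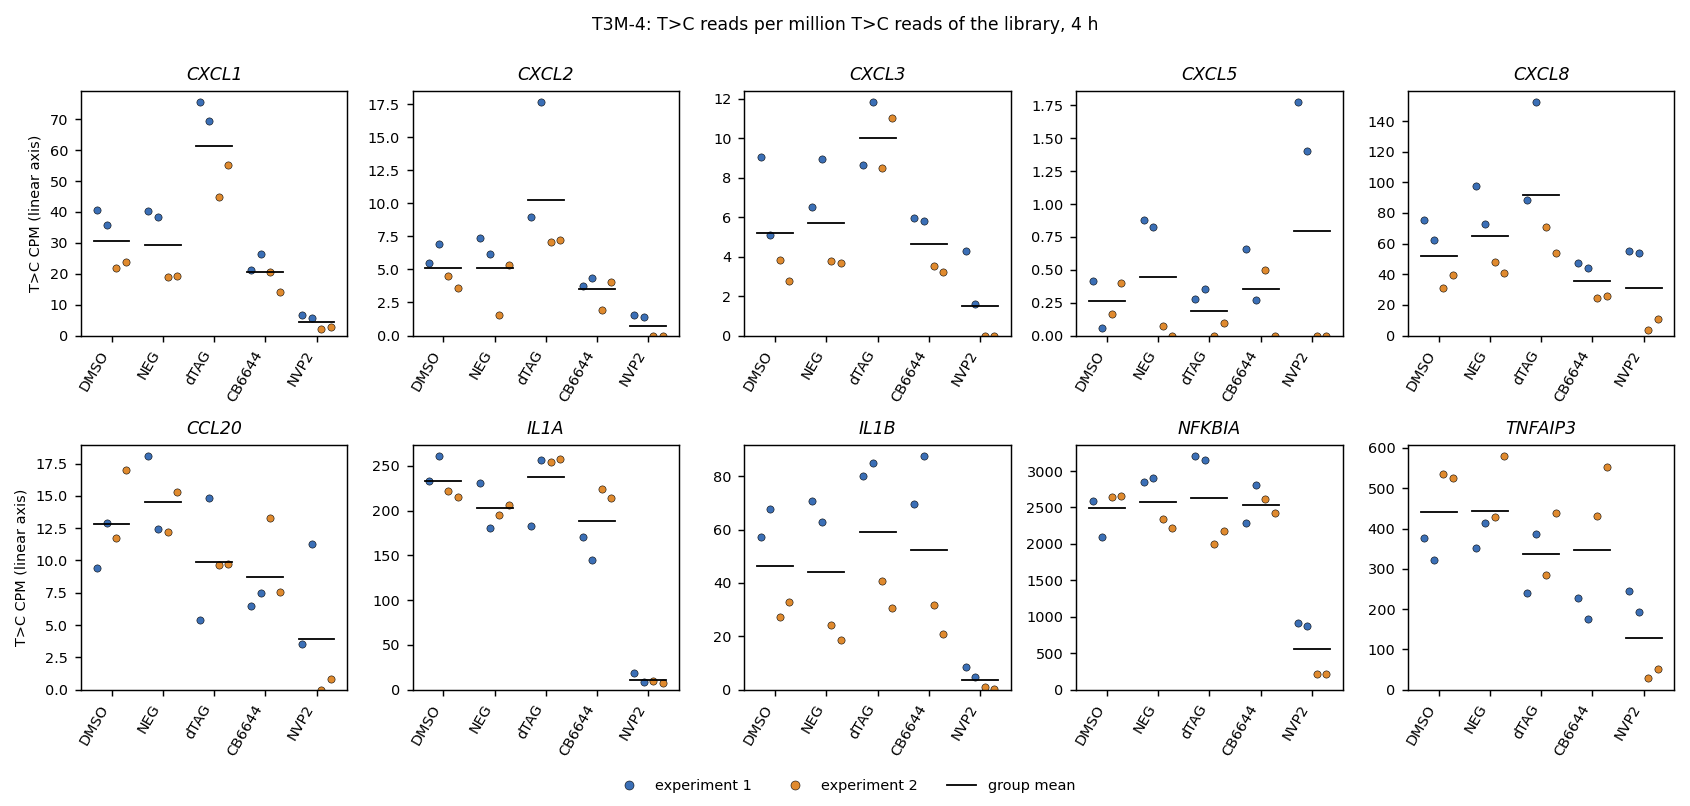
T>C CPM (linear axis) of each member in every T3M-4 library, by treatment, with colours for the 2 experiments. CXCL1 in dTAGv1 libraries lies at 44.8 to 75.6 T>C CPM, above the dTAG-NEG libraries at 18.9 to 40.4, and most members fall after NVP2.

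The lines differed most in the interleukins. IL1A, an alarmin cytokine, was read at 233, 261, 222 and 215 T>C CPM in the 4 T3M-4 DMSO libraries. In the 5 AsPC-1 DMSO libraries it was 0 in 4 and 0.0707 in 1. These values rest on 18924 T>C reads against 1, a T3M-4 to AsPC-1 ratio of 1.28e+04 (95% interval 2.29e+03 to 5.05e+05, counting error only). IL1B, the secreted inflammatory form, had 3765 T>C reads against 8, a ratio of 318 (161 to 736). T3M-4 values for IL1B were 57.4, 67.7, 27.3 and 32.7 T>C CPM, and no AsPC-1 DMSO library passed 0.338. For both genes the groups were fully apart.

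Among the chemokines, CXCL1 in T3M-4 was 40.5, 35.9, 21.8 and 23.7 T>C CPM. In AsPC-1 it was 4.11, 3.82, 0.295, 2.95 and 3.70 T>C CPM, so every T3M-4 library was higher. The log2 fold change between the lines was 3.398 (SE 0.49, adjusted p = 0.000191, edgeR quasi-likelihood test). CXCL8, the classic neutrophil chemokine, was 75.3, 62.2, 31.2 and 39.3 T>C CPM in T3M-4 against 4.58, 5.94, 1.77, 14.9 and 11.7 in AsPC-1. The log2 fold change of CXCL8 was 2.76 (SE 0.51, adjusted p = 0.00106), again without overlap. CXCL3 (1.36, SE 0.51, adjusted p = 0.0447) and CCL20, which attracts CCR6-positive lymphocytes (1.09, SE 0.40, adjusted p = 0.0414), were closer to the threshold. CXCL2 did not pass (0.49, adjusted p = 0.463).

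The 2 inhibitors parted. NFKBIA was 2593, 2099, 2641 and 2659.8 T>C CPM in T3M-4 and 678, 682, 705, 916 and 692 in AsPC-1, a log2 fold change of 1.80 (SE 0.16, adjusted p = 6.89e-06) with no overlap. TNFAIP3 was 378, 322, 535 and 524 T>C CPM in T3M-4, inside the AsPC-1 range of 214 to 764 (log2 fold change -0.02, SE 0.35, adjusted p = 0.969). Of the 7 members that passed the low-count filter within each line, 5 were called higher in T3M-4 and 0 lower, while 26.8% of all 13044 tested genes were called higher and 21.6% lower. IL1A and IL1B passed the filter only through T3M-4, so their calls are left out of this count, and CXCL5 did not pass it. Line, batch and culture history cannot be told apart in this comparison.

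Other genes of the pathway were taken from a list of 62 genes. Of 49 tested, 19 were higher and 10 lower in T3M-4, shares to be read against the 26.8% and 21.6% of all genes. Genes could pass the filter through 1 line alone. For CB6644 at 4 h, 45 of the list were tested in AsPC-1 and 51 in T3M-4. Of the NF-κB subunits, NFKB2 (1.80), NFKB1 (1.36), RELB (1.08) and RELA (0.51) were higher on the log2 scale. Of the other inhibitors and feedback regulators, TNIP1, a partner of A20 (2.07), NFKBIE, another IκB (1.73), and the deubiquitinase OTULIN (0.42) were higher and BCL3 was lower (-0.85).

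Among receptors and decoys, IL1RN, the natural interleukin-1 receptor antagonist (4.14), IL1RAP, the co-receptor (1.23), and TNFRSF1A, the first TNF receptor (0.35), were higher, whereas TNFRSF1B, the second TNF receptor, was lower in T3M-4 (-5.33). The adaptors and kinases leaned the other way, with 2 of 13 higher and 6 lower. MAP3K14, the kinase of the noncanonical pathway (1.42), and TAB1 (1.06) were higher, and IKBKG (-1.35) and CHUK (-0.77), both parts of the IKK complex, IRAK4 (-1.06) and RIPK1 (-0.72) were among the lower ones.

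Of 11 targets tested between the lines, 5 were called, all of them higher in T3M-4. Within AsPC-1 only 7 targets passed the filter for NVP2, and PTGS2, IL23A and ICAM1 were not among them. These genes passed the filter between the lines only through T3M-4, so their direction is no finding. PTGS2, the inducible cyclooxygenase, had 27201 T>C reads in the T3M-4 DMSO libraries and 0 in those of AsPC-1, so it was at least 6.12e+03-fold higher (floor of 3 reads over the group), and it passed the filter only through T3M-4. The other 4 were IL23A, a cytokine subunit (2.73), ICAM1, an adhesion molecule (2.58), IL32, another cytokine (2.14), and the transcription factor IRF1 (1.13). IL23A and ICAM1 had 30 and 20 T>C reads over the AsPC-1 DMSO libraries. Of the regulators of AU-rich mRNA decay, ZC3H12A (1.18) and HNRNPD (0.58) were higher and ZFP36 (-1.28) and ZFP36L2 (-0.93) lower. KLF5 was also higher in T3M-4 (2.09, adjusted p = 0.000167, edgeR).

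The labelled share, which is the percentage of a gene's reads that carry T>C conversions, can be compared between genes more readily than levels, although it also depends on T content. Over the 37 AsPC-1 libraries without NVP2 that had both read types, the median labelled share was 46.8% for NFKBIA, 47.5% for CXCL2, 46.2% for CXCL8, 44.6% for CXCL3, 44.1% for TNFAIP3, 42.7% for CXCL1 and 31.0% for CCL20. Over the 16 T3M-4 libraries it was 79.5% for NFKBIA, 73.9% for TNFAIP3, 73.2% for IL1A, 71.4% for CXCL2, 62.2% for CXCL8, 54.1% for CXCL3, 51.6% for IL1B, 46.5% for CXCL1 and 38.6% for CCL20. All of these lie above the highest share over a whole library of the same line, in which genes with many reads weigh most. The share of the median gene was not computed, so the members are not ranked among all genes.

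CXCL5 was the exception, with a median labelled share of 7.46% in AsPC-1 and 6.93% in T3M-4, below the lowest share of a whole library without NVP2 in each line. It rested on 2943 reads in AsPC-1 and 1234 in T3M-4, pooled over those libraries. The order of neighbours was not firm in AsPC-1, where library ranges of NFKBIA (38.4% to 58.0%) and TNFAIP3 (36.1% to 53.8%) overlapped widely. In T3M-4 the range of IL1A, 69.9% to 76.8%, did not meet that of IL1B, 47.3% to 62.7%. In AsPC-1, IL1A and IL1B had only 270 and 232 reads over all libraries without NVP2, and their shares are not ranked.

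**Figure D2:**
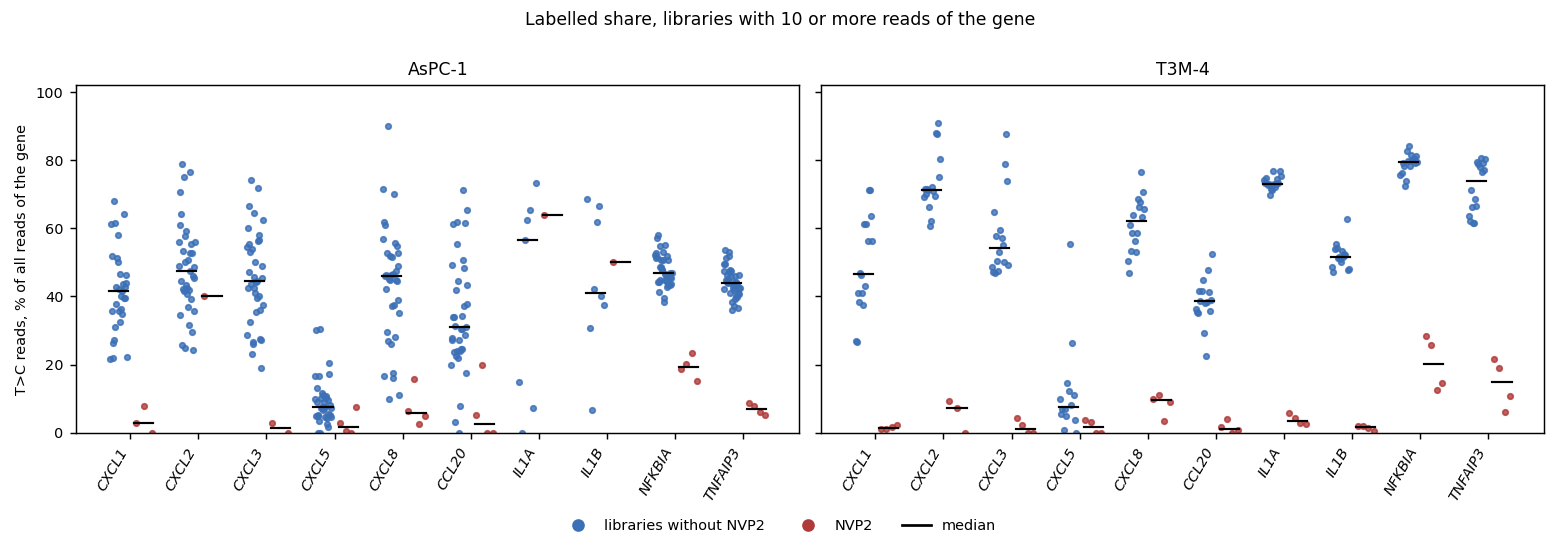
Labelled share (percentage of reads with T>C conversions) of each member per library with at least 10 reads of the gene, by line, with blue points for libraries without NVP2, red points for NVP2 and bars for the medians of the points shown. Without NVP2, CXCL5 lies lowest (medians over all libraries 7.46% and 6.93%) and NFKBIA in T3M-4 highest (79.5%), and most NVP2 points lie far below the blue ones.

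Counts of CXCL8 were multiples of 3 in 40 of 42 AsPC-1 libraries and in 10 of 20 T3M-4 libraries. Where 1 read adds more than 1 to a count, counting error is larger than the count implies. The level is then also raised, so the CXCL8 levels and their difference between the lines are uncertain to that extent. The counts of TNFAIP3 were multiples of 3 in 23 of 42 AsPC-1 libraries, and those of CCL20 in 23 of 39 with reads.

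Degradation of KLF5 addressed which new RNA depends on this factor within hours. In AsPC-1, none of the 7 members tested in T>C reads was called. The largest value was that of CXCL8, which spanned 1.61 to 21.5 T>C CPM (median 6.82) in the 10 dTAGv1 libraries and 0.303 to 8.47 (median 4.01) in the 10 dTAG-NEG libraries. The upper part of the dTAGv1 range lay above every control, but the groups overlapped, and the log2 fold change of 1.22 (SE 0.49) missed the threshold at adjusted p = 0.269. It was 1.31 (SE 0.49, adjusted p = 0.18) with the experiment as a block and 1.18 (SE 0.41, adjusted p = 0.0887) with set and experiment as blocks, a fit added after seeing the data.

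CCL20 went the other way in AsPC-1, at 0 to 8.08 T>C CPM (median 1.52) with dTAGv1 and 1.68 to 7.29 (median 3.38) with dTAG-NEG. Its log2 fold change was -0.72 (SE 0.52, adjusted p = 0.702). NFKBIA had 519.6 to 1037 T>C CPM (median 594) against 548 to 983 (median 816), a log2 fold change of -0.20 (SE 0.14, adjusted p = 0.683). CXCL1 was level, at 0.321 to 9.01 T>C CPM (median 1.49) against 0.241 to 7.62 (median 2.05), with a log2 fold change of -0.01 (SE 0.62, adjusted p = 0.998). CXCL2 (0.51), CXCL3 (0.03) and TNFAIP3 (0.23) also missed the threshold.

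Of all 11696 genes tested in AsPC-1, 2.40% were called with edgeR, 54 higher and 227 lower. Among the members 0 of 7 were called, 1 (CXCL8) had an unadjusted p below 0.05, and DESeq2 called 0 of 10. In all reads, 0 of 8 members were called by edgeR (1, NFKBIA, with an unadjusted p below 0.05) and 0 of 10 by DESeq2, against 0.797% of genes. With T>C reads scaled by all reads, NFKBIA alone passed (-0.51, adjusted p = 0.0319), where the median gene stood at -0.24.

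The labelled share fell for 2 of 7 members after dTAGv1 in AsPC-1: CCL20 by 1.78 on the log2-odds scale (adjusted p = 0.0481, limma) and NFKBIA by 0.26 (adjusted p = 0.0395). Pooled over libraries, CCL20 was labelled at 26.6% after dTAGv1 and 38.1% after dTAG-NEG, and NFKBIA at 43.5% and 47.2%. The background was higher, with a lower labelled share called for 40.0% of all genes and the median gene at -0.33. With the experiment as a block, TNFAIP3 joined (-0.26, adjusted p = 0.014) against 45.9% of genes. Once each library was centred on its median gene, limma called 0 of 7 members, 0 with an unadjusted p below 0.05, against 0.689% of genes. CCL20 was then at -1.46 (adjusted p = 0.444).

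**Figure D3:**
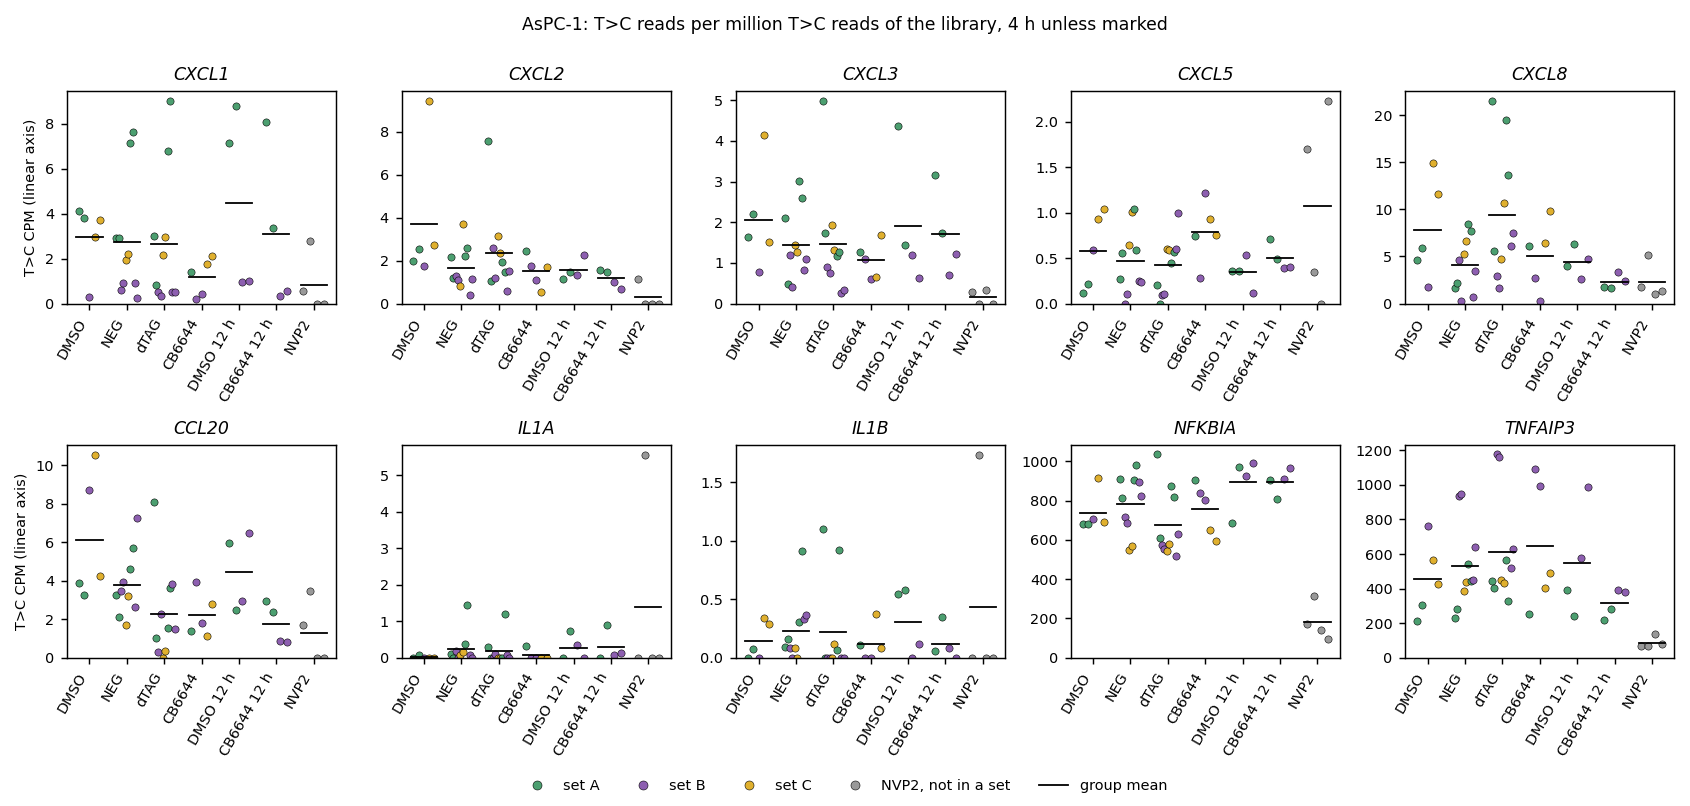
T>C CPM (linear axis) of each member in every AsPC-1 library, by treatment, with colours for the 3 sets of libraries that were found without these genes. Set A libraries lie high for CXCL1 (median 4.11) and low for TNFAIP3 (median 307) in treated and control groups alike.

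In T3M-4, CXCL1 was the member that stood out after KLF5 degradation. It was read at 75.6, 69.3, 44.8 and 55.1 T>C CPM with dTAGv1 and at 40.4, 38.5, 18.9 and 19.2 with dTAG-NEG. Every dTAGv1 library lay above every control, and the difference held within each experiment. The groups of the other 9 members overlapped, and how many of all genes separated in this way was not counted. The log2 fold change was 0.99 (SE 0.29), which did not pass over all genes (adjusted p = 0.255, edgeR; 0.0637, DESeq2). With the experiment as a block it was 1.06 (SE 0.17) and passed (adjusted p = 0.00665), as it did when libraries were summed per experiment (1.05, SE 0.20, adjusted p = 0.0362). Within experiments 1 and 2 alone the value was 0.82 and 1.33 (adjusted p = 0.275 and 0.0708).

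CXCL2 and CXCL3 had values in the same direction that did not pass. CXCL2 was 8.98, 17.7, 7.05 and 7.24 T>C CPM with dTAGv1 against 7.36, 6.16, 1.55 and 5.33 (log2 fold change 0.92, SE 0.46, adjusted p = 0.793). Its groups overlapped across experiments, while within each experiment every dTAGv1 library was higher. CXCL3 was 8.66, 11.8, 8.48 and 11.0 against 6.52, 8.97, 3.76 and 3.67 (0.73, SE 0.33, adjusted p = 0.701). CXCL8, at 88.7, 152, 71.1 and 53.7 against 97.6, 72.8, 47.9 and 40.8, had a log2 fold change of 0.42 (SE 0.35, adjusted p = 0.999).

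The remaining members did not pass either. CCL20 was 5.42, 14.9, 9.62 and 9.72 T>C CPM with dTAGv1 against 18.1, 12.5, 12.2 and 15.3 (-0.63, SE 0.31, adjusted p = 0.772), and TNFAIP3 had a log2 fold change of -0.47 (SE 0.24, adjusted p = 0.812). IL1A (0.15), IL1B (0.35) and NFKBIA (-0.04) stayed within their spread. For NFKBIA the experiments differed more than the treatments, with 3211 and 3155 T>C CPM in experiment 1 of dTAGv1 and 1992 and 2183 in experiment 2.

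In T3M-4, edgeR called 0 of 9 members (2, CXCL1 and CXCL3, with an unadjusted p below 0.05) and DESeq2 0 of 10, against 0.834% of 13424 genes. With the experiment as a block it called 1 of 9, against 2.64% of genes. In all reads, 0 of 10 members were called by edgeR (0 with an unadjusted p below 0.05) and 0 by DESeq2, against 0.0191% of genes. With the block, CXCL1 was called in all reads too (0.88, adjusted p = 0.03), against 0.534% of genes. For the labelled share limma called 0 of 9, with 0 at an unadjusted p below 0.05, against 0.0223% of genes.

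The response to dTAGv1 was not shown to differ between the lines. The difference in log2 fold change, T3M-4 minus AsPC-1, was 1.00 (SE 0.96) for CXCL1 and -0.77 (SE 0.78) for CXCL8. edgeR called 0 of 10 members in this test (0 with an unadjusted p below 0.05), against 0.0426% of genes (824 genes with an unadjusted p below 0.05). KLF5 itself, in T>C reads over its 3′UTR exons, was higher with dTAGv1 in both lines, by 0.60 in AsPC-1 (adjusted p = 0.00284) and 0.90 in T3M-4 (adjusted p = 0.0258). In all reads edgeR called it in AsPC-1 (0.56, adjusted p = 0.00617) but not in T3M-4 (0.86, adjusted p = 0.133). Whether these reads come from the edited endogenous gene or from the fusion was not tested.

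Of the other pathway genes, 44 were tested in T>C reads of AsPC-1, and 3 fell while 0 rose, against 1.94% of all genes that fell. They were BCL3, an atypical IκB protein and coactivator (log2 fold change -1.66, adjusted p = 4.28e-05), TNFAIP2, a TNF-induced gene (-1.59, adjusted p = 0.0246), and ZFP36L2, which promotes decay of AU-rich messages (-0.62, adjusted p = 0.00112). In T3M-4, 51 were tested and 1 rose, PTGS2 (1.11, adjusted p = 0.0476), against 0.0894% of all genes that rose. No subunit of NF-κB was called in T>C reads of either line. The labelled share fell for 26 of 45 pathway genes in AsPC-1, to be read against the 40.0% of all genes, and 3 of the 5 subunits were among them, NFKB1 (-0.44), REL (-0.42) and RELA (-0.35).

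The inactive analogue against DMSO gives the background of the compound; it shares its dTAG-NEG libraries with the dTAGv1 comparison and its DMSO libraries with those of CB6644 and NVP2. In AsPC-1, the 6 dTAG-NEG libraries of batch 1 had log2 fold changes of -0.70 for CXCL1, -1.21 for CXCL2, -0.91 for CXCL3, -1.27 for CXCL8 and -1.15 for CCL20 against DMSO. None of these values passed: edgeR called 0 of 7 members (2 with an unadjusted p below 0.05) and 0% of genes, where 878 genes had an unadjusted p below 0.05. In T3M-4 the values ran from -0.19 to 0.33, with 0 of 9 called (0 with an unadjusted p below 0.05) and 0% of genes (255 with an unadjusted p below 0.05).

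**Figure D4:**
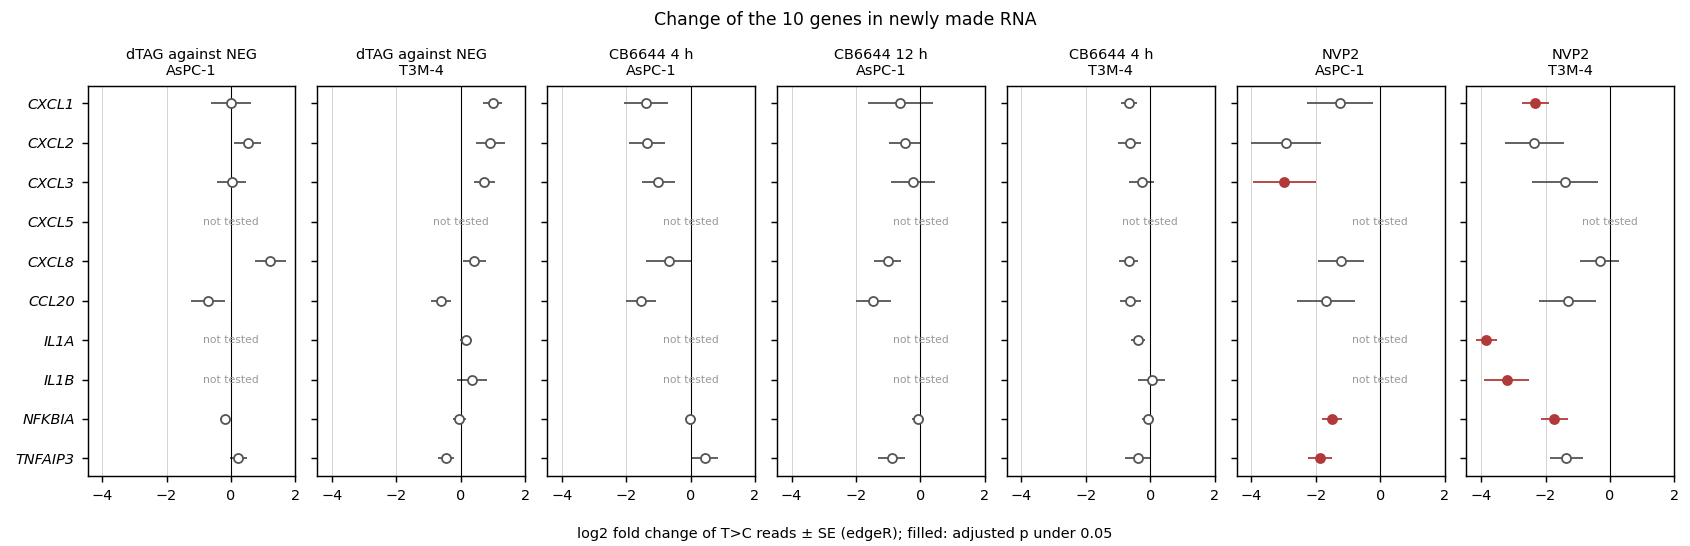
Log2 fold changes (T>C reads, edgeR) of each tested member in the 7 treatment comparisons, with standard errors as bars and filled red points for adjusted p below 0.05. The called points all belong to NVP2, and the CB6644 points lie mostly below 0 without a call.

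Inhibition of RUVBL1/2 asked whether these ATPases are needed for new transcription of the same genes. After CB6644 no member was called in either line or at either time, and neither was any gene in T>C reads: edgeR called 0% of genes in AsPC-1 at 4 h, in T3M-4 at 4 h and in AsPC-1 at 12 h. An unadjusted p below 0.05 was reached by 482, 569 and 473 genes, and among members by 2 of 7, 2 of 9 and 2 of 7. DESeq2 called 0 genes higher and 1 lower, 5 and 2, and 14 and 12, with 0 of 10 members each time. The members lay mostly on the lower side, with negative values for 6 of 7, 8 of 9 and 7 of 7 and medians of -0.999, -0.389 and -0.621, where the median gene was at -0.01, 0.00 and -0.01. With the experiment as a block in T3M-4, 9 of 9 were negative with a median of -0.54. In that edgeR fit 5 of 9 members and 1230 of 13444 genes had an unadjusted p below 0.05, and 0 were called. The inactive analogue, set against the same 4 h DMSO libraries in AsPC-1, had 6 of 7 negative values with a median of -0.91, and in T3M-4 4 of 9 with a median of 0.01.

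CCL20 had the lowest value in AsPC-1 at both times. At 4 h it was 1.38, 3.96, 1.82, 1.12 and 2.78 T>C CPM with CB6644 and 3.88, 3.25, 8.75, 10.6 and 4.27 with DMSO, a log2 fold change of -1.54 (SE 0.47, adjusted p = 0.979). At 12 h it was 2.95, 2.37, 0.870 and 0.804 against 5.99, 2.47, 2.94 and 6.50, a log2 fold change of -1.46 (SE 0.55, adjusted p = 0.998). The groups overlapped each time through 1 CB6644 library, with the others below every DMSO library. In T3M-4 its values were 6.48, 7.48, 13.3 and 7.54 against 9.45, 12.9, 11.8 and 17.0 (-0.63, SE 0.33, adjusted p = 0.994).

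The labelled share of CCL20 pointed the same way in AsPC-1. At 12 h it was 24.5%, 24.6%, 30.6% and 34.3% with CB6644 and 71.2%, 50.7%, 48.4% and 37.2% with DMSO, without overlap. How many of all genes separated in this way was not counted. The share of CCL20 was not called (-1.44, SE 0.41, adjusted p = 0.999, limma). At 4 h the value was -1.22 (SE 0.34, adjusted p = 0.111). Over all 3 CB6644 comparisons limma called 0% of genes for the labelled share, with an unadjusted p below 0.05 in 2670, 385 and 562 genes and in 2, 0 and 1 members.

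The CXCR2 ligands were lower on average but spread widely. At 4 h in AsPC-1, CXCL2 was 2.45, 1.75, 1.11, 0.561 and 1.68 T>C CPM with CB6644 and 2.00, 2.55, 1.77, 9.45 and 2.75 with DMSO (log2 fold change -1.36, SE 0.57, adjusted p = 0.979). Without DMSO library 2.1, which held the value of 9.45, the log2 fold change of CXCL2 was -0.62. CXCL1 was 1.38, 0.184, 0.404, 1.78 and 2.105 against 4.11, 3.82, 0.295, 2.95 and 3.70 (-1.38, SE 0.69, adjusted p = 0.979). The low DMSO library of CXCL1, 1.3, belonged to set B, as did the 2 lowest CB6644 libraries.

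In T3M-4, CXCL1 was 21.1, 26.5, 20.7 and 14.0 T>C CPM with CB6644 against 40.5, 35.9, 21.8 and 23.7 with DMSO (-0.67, SE 0.25, adjusted p = 0.994), and CXCL8 was 47.1, 43.9, 24.6 and 25.6 against 75.3, 62.2, 31.2 and 39.3 (-0.68, SE 0.29, adjusted p = 0.994). Within each experiment, both genes were lower in every CB6644 library than in every DMSO library. How many of the other members or of all genes were so was not counted. Across experiments the groups overlapped for all 10 members.

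Of the inhibitors, NFKBIA lay near 0 each time. It had log2 fold changes of -0.01 (SE 0.17), -0.08 (SE 0.19) and -0.07 (SE 0.17) in AsPC-1 at 4 h, at 12 h and in T3M-4. TNFAIP3 had 0.43 (SE 0.43) and -0.89 (SE 0.42) in AsPC-1 at 4 and 12 h and -0.39 (SE 0.39) in T3M-4. The first of these was -0.01 with set and experiment as blocks and -0.28 in experiment 2 alone. IL1A in T3M-4 was 170, 145, 224 and 214 T>C CPM with CB6644 against 233, 261, 222 and 215 (-0.38, SE 0.22, adjusted p = 0.994), and IL1B was 0.04 (SE 0.41).

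In all reads, no member passed after CB6644 by edgeR or DESeq2, and edgeR called 0% of genes in AsPC-1 at 4 and 12 h and 0.0127% in T3M-4. In AsPC-1 at 4 h an unadjusted p below 0.05 was reached by 267 genes and by 2 of 8 members, CXCL2 (-1.37, SE 0.48) and CCL20 (-0.91, SE 0.37). At 12 h it was reached by 325 genes and 0 of 8 members, and in T3M-4 by 453 genes and 1 of 10 members, IL1A (-0.47, SE 0.21). Neither the difference between the lines at 4 h nor that between 12 h and 4 h in AsPC-1 was called for a member by edgeR (0 of 10 and 0 of 8, none with an unadjusted p below 0.05) or for any gene (0%, with 511 and 414 genes below an unadjusted p of 0.05). The 12 h and 4 h libraries were of different batches, so time and batch cannot be told apart. Of the other pathway genes, 45, 51 and 46 were tested in T>C reads and 0 were called.

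NVP2 blocks CDK9, which releases RNA polymerase II into elongation, and served the authors as a control with global effects on transcription. The T>C total fell to 2240998 to 3517345 reads per library in AsPC-1 and 3714015 to 4982006 in T3M-4. Scaled by all reads, every tested member was lower, 7 of 7 in AsPC-1 and 9 of 9 in T3M-4, but so were 92.6% and 86.0% of all genes. On that scale the members' medians were -4.57 and -4.42 on the log2 scale, and those of all genes -3.05 and -2.97. Since no spike-in was used, the T>C scale that follows shows change relative to other new RNA.

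Relative to other new RNA in T3M-4, 4 of 9 members fell, against 14.2% of genes. IL1A fell furthest, to 18.2, 9.03, 9.98 and 7.27 T>C CPM from 233, 261, 222 and 215 (log2 fold change -3.84, SE 0.32, adjusted p = 0.000268). IL1B fell to 8.61, 4.62, 1.13 and 0.269 from 57.4, 67.7, 27.3 and 32.7 (-3.21, SE 0.70, adjusted p = 0.00739). In both, no NVP2 library reached the lowest DMSO library.

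CXCL1 fell to 6.59, 5.82, 2.04 and 2.69 T>C CPM from 40.5, 35.9, 21.8 and 23.7 (-2.32, SE 0.42, adjusted p = 0.00308). NFKBIA fell to 920.5, 875, 220.4 and 217 from 2593, 2099, 2641 and 2659.8 (-1.72, SE 0.41, adjusted p = 0.011). NFKBIA libraries of experiment 2 were lower than those of experiment 1 after NVP2, although all 4 lay below every DMSO library. In each experiment alone these 4 members were again called. TNFAIP3 was not called over both (-1.36, SE 0.51, adjusted p = 0.072): it stood at 244 and 192 T>C CPM in experiment 1 (-0.29 in that experiment alone) and at 28.6 and 50.9 in experiment 2 (-2.95).

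With the experiment as a block, 6 of 9 members fell, against 18.1% of genes, CXCL2 (-2.85, adjusted p = 0.0338) and TNFAIP3 (-1.63, adjusted p = 0.04) being added. CXCL8 did not pass (-0.32, SE 0.61, adjusted p = 0.742): it was 55.5 and 54.2 T>C CPM in experiment 1 after NVP2, near its DMSO values of 75.3 and 62.2, but 3.86 and 11.0 in experiment 2, against 31.2 and 39.3. CXCL3 (-1.40) and CCL20 (-1.31) had 0 T>C reads in 2 and 1 of the libraries of experiment 2, and did not pass.

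In AsPC-1, 3 of 7 members fell, against 17.6% of genes. NFKBIA fell to 171, 312, 139 and 95.9 T>C CPM from 678, 682, 705, 916 and 692 (log2 fold change -1.50, SE 0.31, adjusted p = 0.00391). TNFAIP3 fell to 69.4, 65.9, 135 and 79.0 from 214, 307, 764, 564 and 425 (-1.87, SE 0.38, adjusted p = 0.00383). Both were without overlap. The NVP2 libraries were of batch 2 and the DMSO libraries of batch 1, so batch and treatment cannot be told apart here, but against dTAG-NEG libraries of batch 2 both were again called (-1.70 and -1.95, adjusted p = 0.00412 and 0.00102).

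CXCL3 was the third call in AsPC-1 (-2.97, SE 0.98, adjusted p = 0.0372), and it rests on few reads. It had 2 T>C reads over the 4 NVP2 libraries and 118 over the 5 DMSO libraries, a ratio of 0.081 (95% interval 0.0097 to 0.299, counting error only). It was lost with DESeq2 (adjusted p = 0.0569) and without the low-count filter (adjusted p = 0.0632). It held in 1 of the 9 fits that left out 1 library: without NVP2 library 1.1, 1.2 or 2.2 it was lost (adjusted p = 0.0539, 0.0826 and 0.0771), and without any of the 5 DMSO libraries the gene no longer passed the filter. CXCL2 had 4 T>C reads, all in NVP2 library 1.1, and was not called (-2.91, adjusted p = 0.0612; DESeq2 adjusted p = 0.0384). Without that library CXCL2 was called (-7.85, adjusted p = 0.0165), a size that depends on the prior count of the fit, since the other NVP2 libraries had 0 reads. CXCL1 was 0.569 and 2.78 T>C CPM in experiment 1 and 0 in both libraries of experiment 2, where 3 reads would be 1.03 and 1.34 T>C CPM.

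In all reads, the falls were those of older and newer RNA together. In AsPC-1, 4 of 8 members fell, against 8.39% of genes: CXCL2 (log2 fold change -5.04, adjusted p = 0.0103), NFKBIA (-3.00, adjusted p = 0.000325), TNFAIP3 (-1.97, adjusted p = 0.0131) and CCL20 (-1.78, adjusted p = 0.035). NFKBIA in all reads was 17.6, 22.8, 9.27 and 8.60 CPM after NVP2 and 122, 141, 128, 162 and 128 after DMSO.

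In T3M-4, 3 of 10 fell in all reads, against 4.91% of genes: NFKBIA (-2.63, adjusted p = 0.00311), IL1A (-2.47, adjusted p = 0.00022) and TNFAIP3 (-1.88, adjusted p = 0.0157). With the experiment as a block 6 of 10 fell, against 9.86% of genes, with CXCL2 (-1.96), IL1B (-1.42) and CXCL8 (-0.68) added. CXCL1 is the contrast to its new RNA, with 15.0, 13.8, 2.09 and 2.71 CPM of all reads after NVP2 against 13.9, 12.5, 3.95 and 4.66 after DMSO (0.05, SE 0.66, adjusted p = 0.983). CXCL3 (0.26) and CCL20 (0.26) were likewise not called.

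The labelled share fell for 6 of 7 members in AsPC-1 and 9 of 9 in T3M-4, against 95.9% and 93.8% of genes. In T3M-4, pooled over libraries, it went from 45.3% to 1.21% for CXCL1, from 73.2% to 3.75% for IL1A, from 53.8% to 1.84% for IL1B and from 79.8% to 22.7% for NFKBIA. In AsPC-1 it went from 51.4% to 5.24% for CXCL1 and from 53.6% to 19.6% for NFKBIA. The inhibitors thus kept a higher labelled share than CXCL1 in the NVP2 libraries of T3M-4, where TNFAIP3 stood at 16.8%.

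Each library was also centred on its median gene. On that scale 6 of 9 members in T3M-4 fell more than the median gene, against 12.7% of genes: CXCL3 (-3.00), IL1B (-2.81), CCL20 (-2.76), IL1A (-2.71), CXCL1 (-2.53) and CXCL2 (-2.33). NFKBIA (-0.56, adjusted p = 0.357), TNFAIP3 (-0.81, adjusted p = 0.252) and CXCL8 (-0.82, adjusted p = 0.203) did not pass. In AsPC-1, NFKBIA (1.17, adjusted p = 0.013) and CXCL2 (2.30, adjusted p = 0.013) lay higher than the median gene, against 16.7% of genes. The CXCL2 value rests on 12 reads in all over the NVP2 libraries.

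The difference between the lines in the response to NVP2 was called for 1 of 10 members, IL1A (-9.87, SE 1.36, adjusted p = 0.00107), against 0.851% of genes. IL1A passed the filter through T3M-4 and had 1 T>C read in the AsPC-1 DMSO libraries and 16 in 1 of the NVP2 libraries, so neither the call nor its size measures a difference in response. No other member passed, and NFKBIA had -0.25 (SE 0.52).

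Of the other pathway genes, 45 were tested in AsPC-1 and 50 in T3M-4, and 13 and 12 fell while 4 and 5 rose. Over all genes 17.6% and 14.2% fell and 12.9% and 12.4% rose. RELA, the main activating subunit, fell in both lines (-1.92 and -1.18), and NFKB1 rose in AsPC-1 (0.65) and NFKB2 in T3M-4 (1.46). Of the other inhibitors, TNIP1 fell in both (-1.59 and -2.21), and NFKBIB (-2.59) and TNIP2 (-1.47) fell in T3M-4.

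TRAF6, an adaptor of interleukin-1 signalling, fell by 2.91 and 2.56 on the log2 scale, and RIPK1, a kinase of TNF signalling, by 1.48 and 1.78. In AsPC-1, the adaptors MYD88 (-3.05) and TRAF2 (-2.38) and the kinase IRAK4 (-1.87) also fell and the kinase MAP3K7 rose (0.72). In T3M-4, MAP3K14 fell (-2.19), and the IKK subunits IKBKG (1.21) and IKBKB (1.00) rose. Of the targets, IRF1 (-3.39) and TNFAIP2 (-1.60) fell and LCN2, an iron-scavenging protein, rose (2.46) in AsPC-1, while PTGS2 fell (-2.13) and the superoxide dismutase SOD2 rose (1.39) in T3M-4.

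Of the 7 regulators of AU-rich mRNA decay, 4 fell in each line, ZFP36 (-2.21 and -2.52), ZFP36L1 (-2.60 and -3.05), ZFP36L2 (-3.05 and -3.63) and ZC3H12A (-1.53 and -2.73). HNRNPD, which also binds such elements, rose (0.81 and 1.95). KLF5 fell in T3M-4 (-1.65, adjusted p = 0.0375, edgeR) and missed the threshold in AsPC-1 (-0.89, adjusted p = 0.0678). In all reads it fell in AsPC-1 (-2.10, adjusted p = 0.00142) and was not called in T3M-4 (-0.56, adjusted p = 0.0936). For KLF5 the difference between the lines was not called (-0.78, adjusted p = 0.651). PTGS2 was the one pathway gene called for the difference between the lines, where AsPC-1 had 0 T>C reads after DMSO, so no value is read from it.

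The genes most like the members were sought over the 7 treatment comparisons among 10533 genes tested in all of them. The smallest distances to the median of the tested members were those of BAP1 (0.58), ZNF248 (0.71), PSMD10 (0.72), RAD51D (0.73) and JUND (0.74), in log2 units over the 7 values. BAP1 encodes a deubiquitinase and JUND an AP-1 subunit.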

How the data were processed

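SLAM-seq libraries (3′-end kit, single-end reads of 100 bases, 2 h of 4-thiouridine) were made from AsPC-1 and T3M-4 cells. The authors ran slamdunk at its defaults on the 3′UTR exons of GENCODE v44 (hg38) and deposited, for each line, raw counts per gene of T>C reads and of all reads. No spike-in was used. The unit throughout was deposited counts, from which CPM (scaled to the T>C reads or all reads of the library) and labelled shares were computed here. Of the value columns, 1 (all reads of the first dTAGv1 library of experiment 3 in AsPC-1) was not used, so the all-read and share fits of that comparison had 9 dTAGv1 libraries, and 18 unnamed columns were empty.

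Groups came from the labels. The main test was edgeR's quasi-likelihood test (edgeR 4.0.16, R 4.3.3) on T>C or all-read counts of the groups compared, with TMM scaling, its low-count filter and Benjamini-Hochberg adjustment over all genes tested; a call is an adjusted p below 0.05. Log-odds of the labelled share (0.5 reads added) were tested with limma 3.58.1 across all genes. DESeq2 1.42.0 was an alternative. Others were scaling by all reads, no filter, the replicate block, each library left out, single batches and sums per experiment, and a block of set and experiment was chosen after seeing the data. Fits were tested on simulated data with known fold changes. Python 3.11.15, pandas 2.3.3, numpy 2.4.6 and scipy 1.17.1 did the rest, exact count intervals included.

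The members and the pathway lists were chosen with earlier results of these data known. The text names all 10 members, KLF5, in each pathway list the genes called in T>C reads (at most 6 by absolute log2 fold change), and the 5 genes with the smallest Euclidean distance to the members' median over the 7 treatment comparisons.

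Replicate numbers paired the libraries where batch or experiment was shared: deviations from group means correlated at 0.44, 0.70 and 0.50 for the 3 AsPC-1 experiments of dTAGv1, at 0.67, 0.59 and 0.36 in T3M-4 for dTAGv1, CB6644 and NVP2 (batch labels equal the experiments), and at 0.16 to 0.73 for CB6644 at 12 h. For NVP2 in AsPC-1 the numbers did not pair (0.01), since the batches differ. The T>C totals of 2240998 to 27982537 reads per library limit precision for members with few reads; intervals and floors of 3 reads cover counting error only. No column of the authors' own comparisons was used.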

Additional observations from a re-analysis of the deposited data

Results flagged for a closer look

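Within each group of 4 to 10 libraries, a library was singled out where it stood far from the others by Dixon's criterion. Of 120 pairs of member and group examined, 19 had such a library, where chance gives about 1 in 20. Many rest on few reads.

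In AsPC-1, CXCL2 stood at 9.45 T>C CPM in DMSO library 2.1, which was also high for NFKBIA (916 T>C CPM). Library 1.1 of dTAGv1 was high for CXCL2 (7.58), CXCL3 (4.99) and CCL20 (8.08). In NVP2 libraries, CXCL2 was 1.14 T>C CPM in library 1.1 (4 reads), and library 1.2 was high for CXCL8 (5.20, 15 reads), IL1A (5.55, 16 reads) and IL1B (1.73, 5 reads). IL1A had 25 reads in all in that library, so 64.0% were labelled.

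The other AsPC-1 values are of nearly silent genes. IL1A stood apart at 0.319 T>C CPM in CB6644 library 1.1 (3 reads), 0.0707 in DMSO library 1.2 (1 read), 1.21 in dTAGv1 library 3.2 (17 reads), 1.43 in dTAG-NEG library 3.2 (22 reads) and 0.907 in CB6644 library 2 of 12 h (13 reads). IL1B did so at 0.374 in CB6644 library 2.1 (4 reads) and 0.912 in dTAG-NEG library 3.2 (14 reads).

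In T3M-4, IL1A was 183 T>C CPM in dTAGv1 library 1.1 while the others lay between 255 and 257. NFKBIA was 2099 in DMSO library 1.2, below the others, and CCL20 was 13.3 in CB6644 library 2.1, above the others. The interaction test between the lines called IL1A after NVP2 (-9.87), but AsPC-1 had 1 T>C read after DMSO, so the call measures no difference in response.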

How the results depend on the processing

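Over the alternatives, 1213 single values kept their direction and their side of the threshold. Another 66 turned direction, 28 gained a call and 14 lost one. Of the counts of called members, 160 stayed equal or close to the main count and 9 moved. CXCL5, and IL1A and IL1B in AsPC-1, had few T>C reads and mostly fell under the low-count filter in those reads. Why the values below moved was not tested.

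Counts of called members moved with scaling, the replicate block or DESeq2. For dTAGv1 in AsPC-1, scaling T>C reads by all reads gave 1 (NFKBIA), and centring the labelled share on the median gene gave 0. For dTAGv1 in T3M-4, the replicate block gave 1 (CXCL1, 1.06 in T>C reads and 0.88 in all reads), and sums per experiment with the block gave 1. For NVP2, scaling by all reads gave 7 in AsPC-1 and 9 in T3M-4, centring the labelled share gave 2 in AsPC-1, and the block gave 6 in all reads of T3M-4. The block added the other calls that the report names with it and changed no other member's call. DESeq2 called 6 members lower for NVP2 in T3M-4 (CXCL2 and TNFAIP3 added), 3 lower and 1 higher in AsPC-1 (CXCL2 gained, CXCL3 lost, IL1A at 6.34 on 16 reads of 1 library), and 5 in all reads of AsPC-1 (CXCL3 added). Without the filter, TNFAIP3 was added in T3M-4 (-1.47). With a library left out, NVP2 called 2 to 3 members in AsPC-1 and 4 to 5 in T3M-4, TNFAIP3 being added without NVP2 library 1.1 (-1.83).

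Over all genes, dTAGv1 in AsPC-1 gave 54 higher and 227 lower T>C calls, but 97 and 350 with the block, 119 and 376 with DESeq2, 305 and 606 with set and experiment as blocks, and 10 and 1180 scaled by all reads. In all reads the same comparison gave 16 and 95, then 58 and 171 (block), 57 and 162 (DESeq2) and 280 and 487 (set and experiment). In T3M-4 it gave 12 and 100, then 58 and 296 (block) and 71 and 277 (DESeq2), and in all reads 1 and 2, then 20 and 64 (block) and 16 and 54 (DESeq2). NVP2 gave 1488 and 2018 in AsPC-1 and 1523 and 1740 in T3M-4, but 8 and 10650 and 10 and 10526 scaled by all reads.

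Direction turned for these values. For dTAGv1 in AsPC-1, T>C reads of CXCL3 turned to -0.23 scaled by all reads, -0.042 with the replicate block, -0.17 with set and experiment as blocks, -0.70 and -0.036 without experiment 1 or 2, and -1.29 in batch 2 alone. TNFAIP3 turned to -0.0066 scaled by all reads and -0.026 in batch 2, CXCL1 to 0.17 without experiment 1 and 0.094 in batch 2, and CXCL2 to -0.19 in batch 2. The labelled shares of NFKBIA and TNFAIP3 turned to 0.059 and 0.071 when centred. In T3M-4, NFKBIA turned to 0.031 scaled by all reads and 0.087 in batch 1.

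For CB6644 at 4 h in AsPC-1, NFKBIA turned to 0.29 in experiment 1 and TNFAIP3 to -0.28 in experiment 2, and with set and experiment as blocks TNFAIP3 was -0.010 in T>C reads and -0.085 in all reads. Centred labelled shares turned to 0.016 for CXCL8, 0.044 for NFKBIA and 0.031 for TNFAIP3. In T3M-4, IL1B turned to -0.0074 scaled by all reads, -0.022 with the block, -0.19 in batch 2 and -0.032 summed per experiment, and in batch 2 CXCL3 was 0.039 and IL1A 0.00033. For NVP2 in T3M-4, CXCL8 was 0.070 in batch 1 and CXCL1 was -0.20 in all reads with the block, and the difference between lines turned with the block to -0.17 for CXCL2, -0.17 for CXCL5 and -0.059 for CCL20. In the centred labelled share for NVP2 in AsPC-1, NFKBIA (1.17) and CXCL2 (2.30) turned and were called.

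With a library left out, direction turned within these ranges: for dTAGv1 in AsPC-1, CXCL3 from -0.44 to 0.20 and CXCL1 from -0.46 to 0.31; for dTAGv1 in T3M-4, NFKBIA from -0.13 to 0.087; for CB6644 at 4 h, NFKBIA from -0.10 to 0.094 in AsPC-1, and in T3M-4 CXCL3 from -0.47 to 0.12, IL1B from -0.30 to 0.28 and NFKBIA from -0.16 to 0.0087; for CB6644 at 12 h, CXCL3 from -0.69 to 0.54. None of these values was called.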
